A study of Mus musculus with 4 samples.

Results

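The secretory IgA and BAFF-APRIL axis was followed through 10 genes chosen by name. They were the joining chain gene Igj, the polymeric immunoglobulin receptor gene Pigr, the chemokine and receptor pair Ccl28 and Ccr10, the ligand genes Tnfsf13 (APRIL) and Tnfsf13b (BAFF), the receptor genes Tnfrsf13b (TACI), Tnfrsf13c (BAFF receptor) and Tnfrsf17 (BCMA), and Prdm1 (Blimp-1). Of these, 9 had a probe under their own name among the 34844 gene names of the array, and 8 were tested among 22312 genes. The 9 genes were read by 13 of 55681 probes, of which 11 were tested. No probe carried the name Tnfsf13, so APRIL was not analysed here.

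The RNA came from the salivary glands (SGs) of female C57/BL6 mice at 10 weeks of age, with no treatment named in the labels. The labels name 2 groups, Myd88-KO and Wildtype, with 2 arrays each. The paper describes both genotypes as homozygous offspring of heterozygous parents, kept under conventional conditions, and the deletion is carried in every cell of the mouse. The labels name the submandibular and sublingual glands (SMGs and SLGs) as the tissue, whereas the paper names SMGs and a larger number of mice, and no source used here says which mouse gave which array. p-values therefore measure the spread between these arrays, which may be technical.

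Secretory IgA reaches saliva through a chain of cells. Plasma cells in the gland stroma join IgA monomers into dimers with the J chain, and acinar and duct cells carry the dimers across the epithelium with the polymeric immunoglobulin receptor, the product of Pigr. CCL28 made by gland epithelium draws IgA plasma cells that carry CCR10. BAFF and APRIL keep B cells and plasma cells alive through 3 receptors of the TNF receptor family, and TACI is known to bind the adaptor MyD88.

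For each array, 100 ng of total RNA was amplified and labelled with the dye Cy3. Levels are given as the log2 processed signal minus the 75th percentile of the same array, so that a level of 0 is the 75th percentile, and differences are Myd88-KO minus Wildtype. They do not compare one probe with another. A probe counted as well above background by the flags of the scanner software. These covered 52.2% and 68.4% of probes on Myd88-KO arrays 1 and 2, against 74.1% and 55.1% on Wildtype arrays 1 and 2, so Myd88-KO array 1 and Wildtype array 2 resolved dim probes less well. All 17 salivary epithelium markers tested were well above background on all 4 arrays. The Myd88 probe, which starts at base 1629 of the transcript, read 1.51 and 1.41 on the Myd88-KO arrays and 1.15 and 1.07 on the Wildtype arrays, so it does not check the labels.

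The J chain gene, the BAFF receptor gene at its tested probe and the plasma cell chemokine receptor gene read lower on the Myd88-KO arrays. None of them passed the adjusted test. The untested probe of the BAFF receptor gene overlapped between the groups, and the 3 probes of TACI went different ways. The log2 difference was -5.87 for Igj, -4.44 for Tnfrsf13c, -2.12 for the brightest probe of Tnfrsf13b and -1.58 for Ccr10, whereas it was 0.41 for Ccl28. None of the 8 genes passed limma's adjusted threshold of 0.05, and none of the 22312 genes tested did (0% called, smallest adjusted p = 0.194). At an unadjusted p under 0.05, 4 of the 8 were lower and 0 higher, where 6.83% of all genes tested were lower and 9.82% higher. With probes of A and G only left out, Pigr joined them as higher (0.53), which made 5 of the 8, with 4 members lower in all. Igj, Tnfrsf13c and Ccr10 entered the test through the Wildtype group alone, so the counts and the median over the members are a description and no support for a decrease over the list. With a stricter filter that asks for signal well above background on all 4 arrays, these 3 were not tested and 1 member was at an unadjusted p under 0.05. The arrays of both groups did not overlap for 4 genes that were lower and 1 that was higher, against 18.7% and 33.2% of all genes. A difference below 0 was measured for 5 of the 8, against 40.4% of all genes. The median difference of the 8 genes was -0.84, and that of all genes tested was 0.06. The members' median was -0.10 with normexp background correction, -0.32 with the mean of a gene's probes, -0.0928 with no filter on dim probes and 0.0512 with the stricter filter, so its size and sign rested on the processing. With 2 arrays against 2, an exact permutation test of a single gene cannot give a two-sided p below 0.333, so it was not used.

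**Figure D1:**
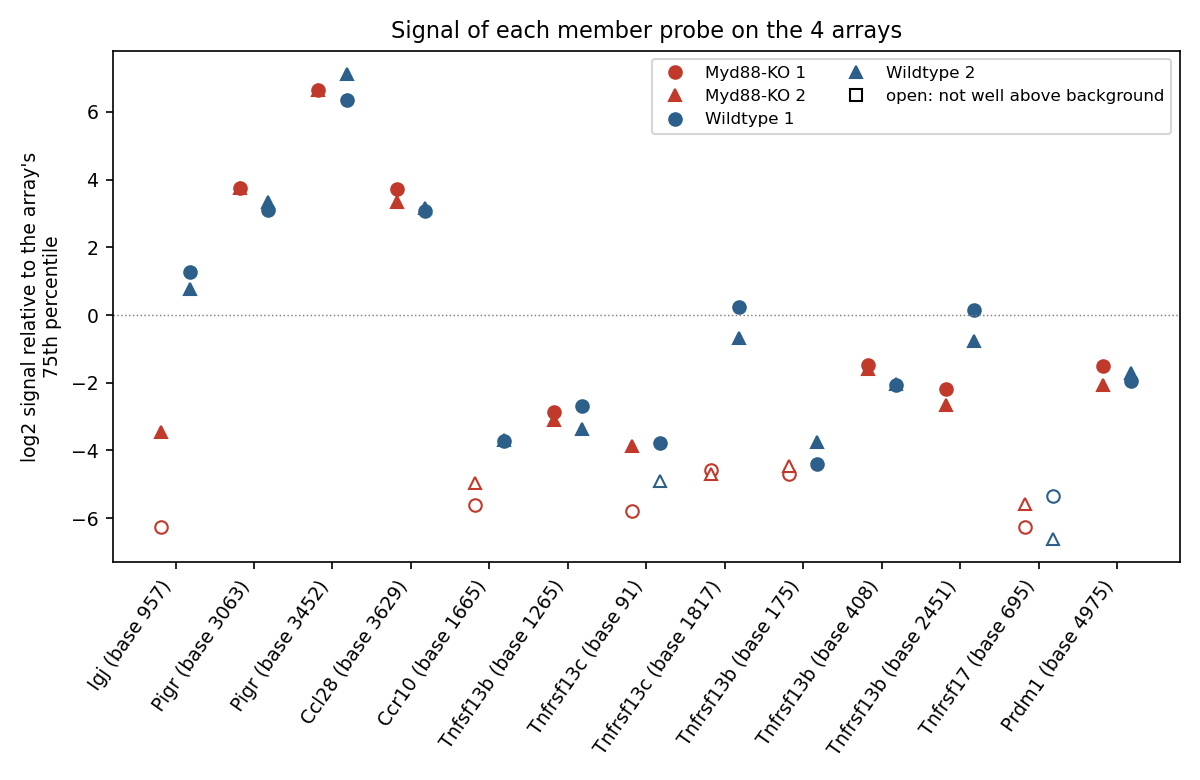
Level of each of the 13 probes on each array, as the log2 signal relative to the array's 75th percentile (vertical axis), with the probe's first base in the transcript beside the gene name. Open symbols were not well above background, and both Myd88-KO arrays sat below both Wildtype arrays for Igj, Ccr10, Tnfrsf13c at base 1817 and Tnfrsf13b at bases 175 and 2451.

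Igj encodes the J chain, which links IgA monomers into the dimers that Pigr carries, and links IgM pentamers. Its probe lies on chromosome 5 at 88949919 to 88949978 on the minus strand (NCBI37/mm9). Its level was -6.27 and -3.44 on Myd88-KO arrays 1 and 2, and 1.28 and 0.76 on Wildtype arrays 1 and 2. Both Myd88-KO arrays were below both Wildtype arrays by more than 4 log2 units, and Myd88-KO array 1 was not well above background. The group means were -4.86 ± 2.00 (SD, n = 2) and 1.02 ± 0.37 (SD, n = 2). The difference of -5.87 (SE 1.05, 95% interval -8.88 to -2.87) had a limma adjusted p of 0.203, and it includes the background value of Myd88-KO array 1. Without 1 array at a time it ran from -7.29 to -4.46. Under normexp background correction it was -2.98 and passed the threshold (adjusted p = 0.0246). In whole glands, fewer plasma cells and less Igj RNA per cell cannot be told apart. Markers of B cells and skeletal muscle and most of lymph node, given below, were also lower on the Myd88-KO arrays. Between the Wildtype arrays, Igj and the summed signals of B cell, T cell and lymph node markers were higher on array 1. The summed signal of muscle markers was higher on array 2. Whether any of these differences shares a source with that of Igj was not tested.

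The immunoglobulin constant region genes, whose products the J chain joins, were not on the array under their gene symbols except Igkc, whose probe derives from a bone cDNA and was not well above background on any array. Its levels were -5.99 and -6.07 on the Myd88-KO arrays and -6.15 and -6.32 on the Wildtype arrays. After values had been seen, 8 further probes were taken by their description as constant regions, none of them of the IgA heavy chain. The untested probe, of gamma 2C, read -6.25 and -2.50 on the Myd88-KO arrays and -3.32 and -6.62 on the Wildtype arrays. The other 7 were tested, and all 7 were lower and did not overlap between the groups, with differences from -6.57 to -2.79 and a median of -5.05. Those of kappa, gamma 1 and lambda constant 3 at base 368 entered the test through the Wildtype group alone. The counts are therefore a description and no support for a decrease. At an unadjusted p under 0.05 there were 7 of the 7, and none passed the adjusted threshold in the fit over all 31016 tested probes. Over all genes tested, 18.7% were lower without overlap and 6.83% were lower at that unadjusted p. These shares were not computed over probes.

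The kappa constant region is shared by most mouse antibodies of every class, and its level was -3.84 and -2.32 on the Myd88-KO arrays against 3.79 and 3.19 on the Wildtype arrays. The heavy constant mu region belongs to IgM, and its level was -2.10 and -1.49 against 1.73 and 0.25. For gamma 1, the heavy chain of IgG1, the brighter probe read -6.11 and -2.59 against 1.79 and 1.72. The lambda constant 2 level was -3.80 and -2.72 against 2.33 and 1.26. In each of these 4, the lowest Wildtype array lay above the highest Myd88-KO array. Kappa and gamma 1 were not well above background on Myd88-KO array 1, whereas mu and lambda constant 2 were well above it on all 4 arrays.

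Pigr, which carries IgA dimers through epithelial cells and leaves its secretory component on them, had a pair of probes. The probe at base 3063 lies on chromosome 1 at 132748041 to 132748100. It read 3.75 and 3.75 on the Myd88-KO arrays and 3.105 and 3.33 on the Wildtype arrays, so the Myd88-KO arrays were higher without overlap. The difference was 0.53 (SE 0.13, 95% interval 0.16 to 0.91), with a limma adjusted p of 0.287 in the fit over all probes. Without 1 array at a time it ran from 0.42 to 0.64.

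The brighter probe, at base 3452, stood for Pigr in the fit over genes. It is placed not on chromosome 1 but on chromosome 14, at 70241922 to 70241981 on the minus strand, and it holds 33 A, 27 G and no C or T. Its first 30 bases are shown because they are a run of GAG and AAG triplets:
Pigr probe at base 3452: gaggaggaggaggagaaggagaaggagaag
Among the tested probes of the array, 23 consist of A and G only, and they carry 18 different gene names. The probe read 6.65 and 6.64 on the Myd88-KO arrays and 6.35 and 7.12 on the Wildtype arrays, and the groups overlapped. Its difference was -0.09 (SE 0.30, 95% interval -0.94 to 0.76, adjusted p = 0.903). The direction given for Pigr thus turned with the probe, from -0.09 to 0.53 once probes of A and G only were left out, where the adjusted p was 0.222.

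Ccl28, the epithelial chemokine that draws IgA plasma cells to mucosal glands, read 3.72 and 3.35 on the Myd88-KO arrays and 3.08 and 3.17 on the Wildtype arrays. The Myd88-KO arrays were higher without overlap. The difference of 0.41 (SE 0.17, 95% interval -0.07 to 0.89) did not pass the test (adjusted p = 0.343), and it stayed between 0.22 and 0.59 in all alternatives run. Its probe is placed on the unassembled sequence 13_random of NCBI37/mm9.

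Ccr10, the receptor for CCL28 on IgA plasma cells, read -5.61 and -4.97 on the Myd88-KO arrays and -3.73 and -3.69 on the Wildtype arrays. Neither Myd88-KO array was well above background and both Wildtype arrays were, so the difference is a bound of at least 1.22-fold lower. The fitted difference was -1.58 (SE 0.26, adjusted p = 0.198). With normexp background correction and its offset of 50 it was -0.06 (adjusted p = 0.790). The size of this decrease thus rested on the background correction and that offset, whose parts were not told apart. The ligand and its receptor are shown side by side with the other probes in the plot of differences.

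**Figure D2:**
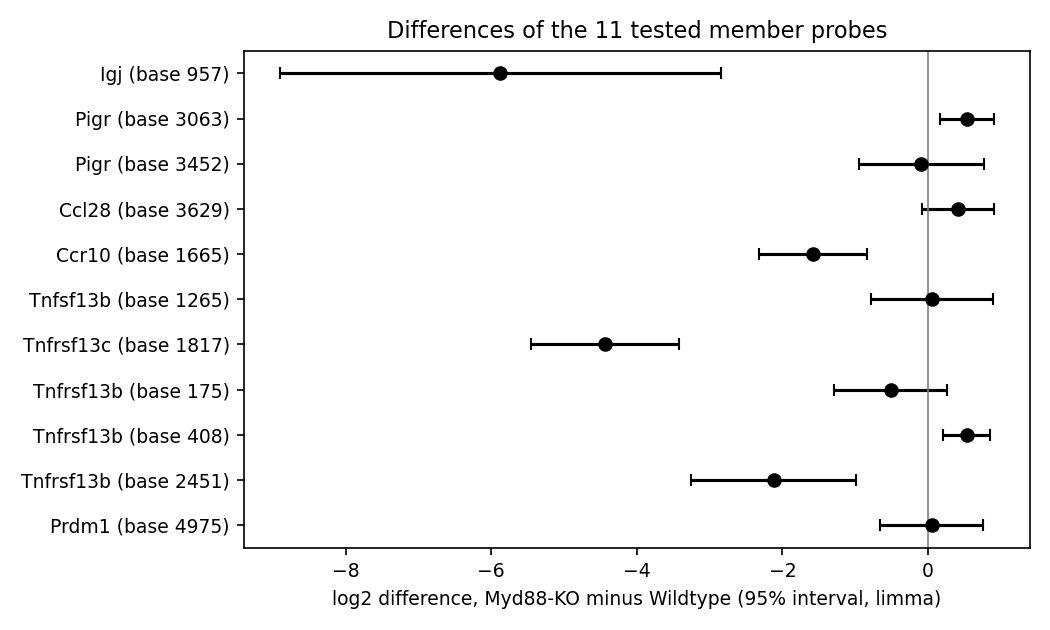
log2 difference of each of the 11 tested probes, Myd88-KO minus Wildtype (horizontal axis), as points with the 95% interval of limma's fit over all 31016 tested probes. The intervals of Igj, Ccr10, Tnfrsf13c and Tnfrsf13b at base 2451 lie below 0, those of Pigr at base 3063 and Tnfrsf13b at base 408 lie above it, and none of the 11 passed the adjusted threshold.

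Tnfsf13b encodes BAFF, the survival factor for mature B cells, made by myeloid and stromal cells and by gland epithelium. It read -2.85 and -3.099 on the Myd88-KO arrays and -2.68 and -3.38 on the Wildtype arrays, and the Wildtype arrays lay on either side of the Myd88-KO arrays. The difference was 0.05 (SE 0.29, 95% interval -0.77 to 0.87, adjusted p = 0.945). Its sign turned under quantile normalization (-0.17), and the interval holds changes of either sign.

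Tnfrsf13c encodes the BAFF receptor, the main survival receptor of naive B cells. Its probe at base 1817 lies on chromosome 15 at 82052203 to 82052262 on the minus strand. It read -4.59 and -4.70 on the Myd88-KO arrays and 0.25 and -0.67 on the Wildtype arrays. Neither Myd88-KO array was well above background, and both Wildtype arrays were, so the signal was at least 13.8-fold lower by the limit described below. The fitted difference of -4.44 (adjusted p = 0.194) rests on background values for the Myd88-KO arrays. It passed the threshold with trended and robust moderation (adjusted p = 0.0219), and it shrank to -1.93 with normexp background correction (adjusted p = 0.0522), which lies under the fold given above. Without 1 array at a time it ran from -4.90 to -3.97.

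The other Tnfrsf13c probe, at base 91, lies at 82054616 to 82054675 of chromosome 15. It read -5.78 and -3.88 on the Myd88-KO arrays and -3.77 and -4.91 on the Wildtype arrays. It was well above background on 1 array of each group, Myd88-KO 2 and Wildtype 1, and was not tested. These are the arrays with more probes above background, and the groups overlapped. The sequences of the 3 coding probes of the receptors are shown because they did not repeat the difference of the probes nearer the end of the same transcripts:
Tnfrsf13c probe at base 91: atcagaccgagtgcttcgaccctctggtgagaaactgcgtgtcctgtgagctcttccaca
Tnfrsf13b probe at base 175: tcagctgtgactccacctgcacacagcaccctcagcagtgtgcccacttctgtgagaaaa
Tnfrsf13b probe at base 408: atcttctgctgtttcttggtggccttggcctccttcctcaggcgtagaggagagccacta
The first of these sequences encodes part of the extracellular region of the BAFF receptor, and the Tnfrsf13b sequence at base 175 part of the cysteine-rich extracellular region of TACI.

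Tnfrsf13b encodes TACI, which binds both BAFF and APRIL and promotes IgA switching. Its 3 probes, all on chromosome 11, went different ways. The probe at base 2451, at 60962770 to 60962829, read -2.19 and -2.67 on the Myd88-KO arrays and 0.15 and -0.77 on the Wildtype arrays. All 4 values were well above background and the groups did not overlap. The difference was -2.12 (SE 0.39, 95% interval -3.24 to -0.995, adjusted p = 0.203).

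The probe at base 408, at 60960405 to 60960464, read -1.47 and -1.59 on the Myd88-KO arrays and -2.08 and -2.03 on the Wildtype arrays. Here the Myd88-KO arrays were higher without overlap. The difference was 0.53 (SE 0.11, adjusted p = 0.272 in the fit over all probes). The probe at base 175, at 60954823 to 60954882, read -4.70 and -4.47 against -4.39 and -3.75, and neither Myd88-KO array was well above background. Its difference was -0.51 (SE 0.27, adjusted p = 0.473), and 0.06 with normexp background correction. No common direction can therefore be given for TACI, and the value of -2.12 belongs to its brightest probe, with -0.70 for the mean of its 3 probes.

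Tnfrsf17 encodes BCMA, the receptor through which APRIL sustains long-lived plasma cells. Its probe read -6.26 and -5.58 on the Myd88-KO arrays and -5.35 and -6.62 on the Wildtype arrays. It was not well above background on any of the 4 arrays, and it was not tested. A difference in BCMA was not detectable at this signal.

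Prdm1 encodes Blimp-1, the repressor that turns activated B cells into plasma cells and that also acts in T cells and epithelium. It read -1.50 and -2.06 on the Myd88-KO arrays and -1.96 and -1.71 on the Wildtype arrays. The groups overlapped, and the difference was 0.05 (SE 0.24, 95% interval -0.65 to 0.75, adjusted p = 0.937). Its sign turned when the median difference of all genes was subtracted (-0.01). Prdm1 and Igj are both made by plasma cells, and the gap between their differences of 0.05 and -5.87 was not tested.

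**Figure D3:**
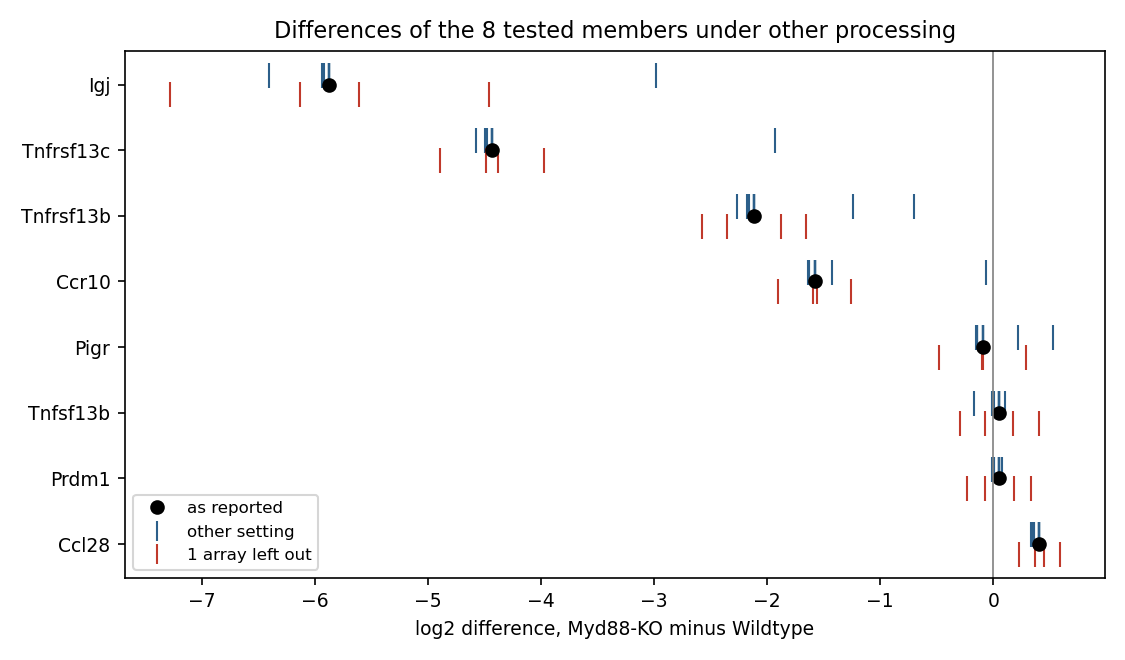
log2 difference of each of the 8 tested genes (horizontal axis) as reported (black points), under the other settings (blue ticks) and with 1 array left out (red ticks). Igj, Tnfrsf13c, Tnfrsf13b and Ccr10 stayed below 0 and Ccl28 above 0 in every setting that tested them, and Pigr, Tnfsf13b and Prdm1 lay on both sides of 0.

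The upstream sequences of the genes were taken from RefSeq (GRCm38.p6), which is another build than that of the array, for 9 of the 10 genes and with Igj under its present name Jchain. The 250 bases before the start were searched on both strands for the octamer ATGCAAAT, bound by the OCT factors of B cells, the E boxes CACGTG and CAGGTG, and the NF-kB consensus, and none of these overlapped another. Among all 32851 upstream sequences of the table, 1.6% held the octamer, 6.02% CACGTG, 17.2% CAGGTG and 7.25% the NF-kB consensus. The sequences of Igj and Tnfrsf13c, with the lowest fitted differences, and of Pigr are shown, with matches in capitals:
Igj, chr5:88527898-88528147, minus strand: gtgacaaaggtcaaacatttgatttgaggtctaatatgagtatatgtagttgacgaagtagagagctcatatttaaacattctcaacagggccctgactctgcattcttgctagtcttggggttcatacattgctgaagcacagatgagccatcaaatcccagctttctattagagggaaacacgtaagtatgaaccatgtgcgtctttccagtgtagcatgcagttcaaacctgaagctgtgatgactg
Tnfrsf13c, chr15:82224381-82224630, minus strand: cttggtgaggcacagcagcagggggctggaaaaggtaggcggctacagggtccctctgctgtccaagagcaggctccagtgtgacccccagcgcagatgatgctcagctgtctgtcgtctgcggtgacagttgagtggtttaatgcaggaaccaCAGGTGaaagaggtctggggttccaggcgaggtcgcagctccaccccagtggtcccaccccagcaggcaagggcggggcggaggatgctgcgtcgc
Pigr, chr1:130826434-130826683, plus strand: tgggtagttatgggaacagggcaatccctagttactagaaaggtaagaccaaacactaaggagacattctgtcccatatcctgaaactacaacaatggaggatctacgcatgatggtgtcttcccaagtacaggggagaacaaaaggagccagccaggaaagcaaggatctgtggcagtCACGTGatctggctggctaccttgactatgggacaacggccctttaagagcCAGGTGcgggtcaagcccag
Igj held none of the 4 motifs in this window. Tnfrsf13c held CAGGTG from base -96, and Pigr held CACGTG from base -71 and CAGGTG from base -20. Of the genes not shown, Ccl28 held CAGGTG from base -55 and Prdm1 from base -87. Tnfsf13, Tnfsf13b, Tnfrsf13b and Tnfrsf17 held none of the motifs. The octamer and the NF-kB consensus were found before none of the 9 genes. Ccr10 had no upstream sequence in the table. These letters describe the windows and say nothing of the factors that bind there.

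The other genes of the axis were read from 5 lists, of which none of the 72 genes tested passed the adjusted threshold. Among 11 plasma cell genes, 5 were lower and 6 higher, with a median difference of 0.03. Mzb1, a chaperone of B cells and plasma cells that helps IgM and IgA assembly, was listed as 2010001M09Rik and read -5.26 and -4.34 on the Myd88-KO arrays and -0.66 and -1.33 on the Wildtype arrays, at least 8.01-fold lower. Irf4, a factor of plasma cell fate, read -3.77 and -2.33 against -1.04 and -1.82, a difference of -1.62 (SE 0.60). It was well above background on only 1 Myd88-KO array. The remaining 9 plasma cell genes differed by no more than 1 log2 unit. At an unadjusted limma p under 0.05, 3 of the 11 were higher and 2 lower (Mzb1 and Cd38). The 3 were Creld2 (0.50), Sdc1 (0.39) and Derl3 (0.36), all higher without overlap. Over all genes tested, 9.82% were higher and 6.83% lower at that p. Several of the 9, such as Xbp1 and Sdc1, are also made by gland epithelium.

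Among 21 tested genes of IgA switching and plasma cell homing, 10 were lower and 11 higher, with a median difference of 0.01. The 3 with a difference beyond 1 were homing receptors. Itgb7, the integrin chain that pairs with Itga4 to bind MAdCAM-1, read -1.72 and -1.47 on the Myd88-KO arrays and 1.23 and 0.37 on the Wildtype arrays, a difference of -2.39 (SE 0.34, adjusted p = 0.194). Itga4 read -1.79 and -1.75 against 0.23 and -0.60, a difference of -1.59. Cxcr4, the receptor that holds plasma cells near CXCL12, was at least 3.80-fold lower, with neither Myd88-KO array well above background. All 3 are also carried by other lymphocytes.

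All 12 genes of Pigr traffic and induction were well above background on all 4 arrays, with 3 lower and 9 higher and a median of 0.16, and none differed by more than 1 log2 unit. Of 21 genes of BAFF and APRIL processing and signalling, 10 were lower and 11 higher, with a median of 0.00. Traf1, a TNF receptor adaptor that lymphocytes induce on activation, read -1.90 and -1.73 on the Myd88-KO arrays and 0.15 and -0.61 on the Wildtype arrays, a difference of -1.58. It was the only one of the 21 beyond 1 log2 unit. Of 7 genes that oppose Blimp-1 or that it represses, 4 were lower and 3 higher, with a median of -0.30. Spib, a B cell transcription factor, read -3.52 and -5.88 against 1.07 and -0.03, a difference of -5.22 (SE 0.96, adjusted p = 0.203). Ciita, the activator of MHC class II genes, read -4.91 and -2.28 against -1.48 and -3.41, so its groups overlapped. Spib and Ciita were each well above background on only 1 Myd88-KO array, so their values include a background reading.

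**Figure D4:**
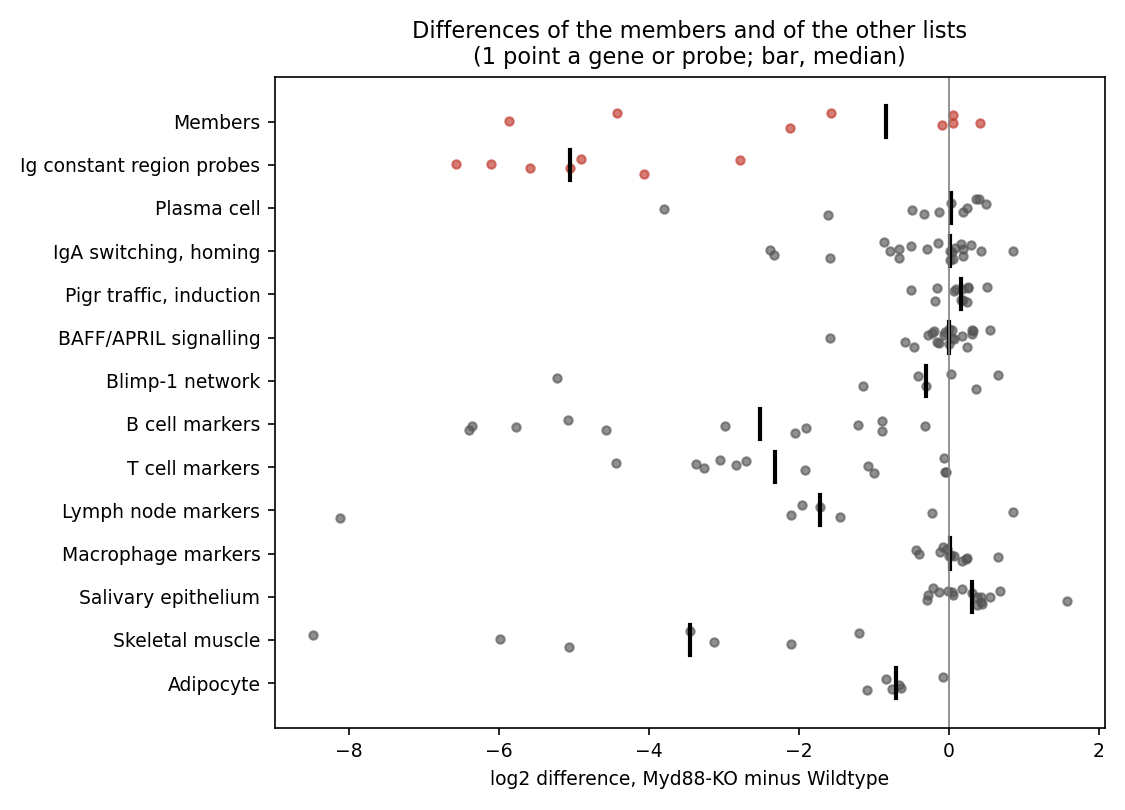
log2 difference of each tested gene, or each tested probe for the constant regions, Myd88-KO minus Wildtype (horizontal axis), by list, with the median as a bar and points spread vertically for visibility. The constant region probes and the B cell, T cell and skeletal muscle markers lie below 0, with medians of -5.05, -2.52, -2.32 and -3.45, and the lists of Pigr traffic and BAFF signalling lie about 0.

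Markers of several other cell types also differed between the groups. Yet the labels say that lymph nodes, connective tissue and fat were dissected away under a stereoscope before RNA was extracted. All 12 tested B cell markers were lower, with a median of -2.52, and their summed signal, in multiples of the array's 75th percentile, was 4.13 and 4.28 on the Myd88-KO arrays and 24.7 and 13.8 on the Wildtype arrays. The examples taken by the fitted difference were Faim3, the Fc receptor for IgM, at least 40.2-fold lower, and Ms4a1 (CD20), at least 28.5-fold lower. Neither of these genes was well above background on either Myd88-KO array. All 12 T cell markers had a difference below 0 (median -2.32), 7 of them at an unadjusted p under 0.05, with a summed signal of 13.2 and 12.7 against 26.7 and 19.0. Cd3d was at -4.45 and Cd5 at -3.38, both not well above background on Myd88-KO array 1. Cd3e (-0.06), Cd8b1 (-0.06) and Cd4 (-0.04), named after their values were seen, were well above background on all 4 arrays and overlapped between the groups. Of 7 lymph node stroma and vessel markers, 6 were lower (median -1.72, summed signal 7.80 and 6.88 against 34.0 and 13.8). Glycam1, a ligand for L-selectin on the high endothelial venules of lymph nodes, had a difference of -8.12, and Ltb, a cytokine of lymphoid tissue, one of -2.11. Glycam1 was not well above background on Myd88-KO array 1, so its difference includes a background value. The remaining marker, Madcam1, the ligand of the integrin of Itga4 and Itgb7, was higher without overlap (0.85, SE 0.13, adjusted p = 0.194), and was named after its value was seen.

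Skeletal muscle markers, which are foreign to the gland epithelium, were lower for 7 of 7 (median -3.45), with Tnnc2 at -5.99 and Myh4 at least 218-fold lower, and with a summed signal of 3.37 and 3.34 against 21.4 and 122.6. All 6 adipocyte markers were lower (median -0.71), with Plin1 at -1.09 and Fabp4 at -0.84, and a summed signal of 152.5 and 237.7 against 324.4 and 327.9. Macrophage and dendritic cell markers were lower for 6 and higher for 6 of 12 (median 0.01), with Emr1 at 0.65 and Lyz2 at -0.44, and a summed signal of 88.1 and 87.7 against 82.6 and 80.8. Salivary epithelium markers were higher for 12 of 17 (median 0.30), with Smgc at 1.57 and Krt8 at 0.68, and a summed signal of 6007 and 5776 against 4322 and 4651. None of the 73 marker genes tested passed the adjusted threshold, and the part of lymph node, muscle or fat in the sampled tissue in the differences of Igj, Tnfrsf13c, Tnfrsf13b and Ccr10 was not tested.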

How the data were processed

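The authors deposited the scanner output of 4 one-colour Agilent whole mouse genome arrays, made per the file headers with Feature Extraction 10.7.3.1. The processed signal is an intensity corrected for background by the authors' software and not normalized between arrays. The mean spot and local background intensities deposited beside it were used for normexp only, with an offset of 50 added to each signal. Such an offset makes differences between dim signals smaller. Probe names, positions (NCBI37/mm9) and flags came from the same files. A table for the whole series was left aside, since nothing ties its 4 value columns to single samples.

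From these, log2 signals of non-control spots were taken minus each array's 75th percentile, spots flagged as outliers were left out and spots of 1 probe averaged. No spot was saturated. Probes entered the test if both arrays of either group had over a share of 0.5 of the spots well above background, and each gene was read from its brightest such probe. A fold given as "at least" sets the brighter group against a limit per dim array, which is the probe's signal or the array's lowest one above background, whichever is higher. It is a point value without an error, and the limit of a single probe can be higher, so the fold may be smaller than given. The test was limma's moderated fit (lmFit, eBayes; version 3.58.1, R 4.3.3), adjusted by Benjamini-Hochberg over all genes or all probes. The number of arrays limits the precision. A run on simulated data checked that the mean estimate of added changes was close to their size. It set no limit on missed or false calls.

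All members and their probes were named, with Myd88, the constant region genes, up to 3 genes in each direction beyond 1 log2 unit from each of the 5 other pathway lists, and 2 examples from each of 7 marker lists. The members and the lists were chosen with earlier results of these data known. Other settings numbered 15, and 5 more were chosen after seeing the data.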

Additional observations from a re-analysis of the deposited data

How the results depend on the processing

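No member passed the adjusted threshold under quantile normalization, with the 75th percentile taken from detected probes, with a stricter or no filter on dim probes, with flagged spots kept, with the mean of a gene's probes, by the methods' t-test, with either block, or without 1 array at a time. With normexp background correction 1 member passed (Igj), with 79 of all genes, 0 pathway genes and 6 marker genes. With trended and robust moderation 1 passed (Tnfrsf13c), with 482 of all genes, 4 pathway and 18 marker genes. With scaling by the array median 3 passed (Igj, Tnfrsf13b, Tnfrsf13c), with 402 of all genes, 4 pathway and 24 marker genes. That scaling raised the median SD within groups from 0.142 to 0.511, and limma then gave all genes 1 common spread. The methods' t-test called 1 of all genes, and 2 members at an unadjusted p under 0.05. The stricter filter left Igj, Tnfrsf13c and Ccr10 untested, with 2 members lower, 1 at an unadjusted p under 0.05 and a median of 0.0512. The members' median was -0.10 with normexp, -0.0928 with no filter and -0.32 with the mean of probes. Without 1 array at a time, 0 members passed, 5 to 7 were lower, 4 to 5 had an unadjusted p under 0.05, and the median ran from -1.04 to -0.74.

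List medians moved too. The B cell median was -1.15 with normexp, -1.06 with the stricter filter and -3.68 without Myd88-KO array 2, the T cell median -1.23 with normexp and -1.46 with the stricter filter, and the lymph node median -0.90 with normexp, -0.99 without Wildtype array 1 and -2.49 without Wildtype array 2. The adipocyte median was -0.44 without Myd88-KO array 1 and -1.11 without Myd88-KO array 2.

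Pigr turned to 0.22 with the mean of its probes, 0.29 without Wildtype array 2 and 0.53 without probes of A and G only. Tnfsf13b turned to -0.17 with quantile normalization, -0.07 without Myd88-KO array 1, -0.30 without Wildtype array 2 and -0.00854 with the median of all genes subtracted. Prdm1 turned to -0.000705 with median scaling, -0.23 without Myd88-KO array 1, -0.08 without Wildtype array 1 and -0.0108 with that median subtracted. The Tnfrsf13b probe at base 175 turned to 0.0568 with normexp. Over the arrays left out, Pigr ran from -0.48 to 0.29, Tnfsf13b from -0.30 to 0.40 and Prdm1 from -0.23 to 0.33. The cause of these changes was not tested.

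Whether replicate numbers pair the arrays could not be told. Deviations of same-numbered arrays correlated at -0.37 over genes and those of crossed arrays at 0.37. With 2 arrays per group, either value fixes the other. With the replicate block, 0 members and 0 of all genes passed, with 4 members at an unadjusted p under 0.05 and adjusted p of 0.440 for Igj and Tnfrsf13c. The crossed block also called 0 members and 0 of all genes, with 4 members at an unadjusted p under 0.05. Without 1 array at a time, 957 to 1661 genes were lower and 1097 to 1407 higher at an unadjusted p under 0.05, against 1525 and 2190 with all arrays, so that the higher count dropped over 1.5 times without any 1 array and the lower count without Wildtype array 1 (957). Signal near background limits Ccr10, Tnfrsf17 and the Myd88-KO arrays of Igj and Tnfrsf13c.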
